A study of Mus musculus with 28 samples.

Results

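Extracellular ATP and adenosine signalling was followed in CD4+ T cells through 8 genes: the nucleotide-degrading enzymes Entpd1 and Nt5e, the adenosine-removing enzyme Ada, the ADP-ribosyltransferase Art2b, the ATP-gated channels P2rx7 and P2rx4, and the adenosine receptors Adora2a and Adora2b. They were chosen by symbol, as 8 of the 25124 genes of the deposited table. The cells, gated as live CD45+ CD90.2+ TCRb+ CD4+, came out of the small intestine's lamina propria, the tissue layer under the gut epithelium, of T-bet-ZsGreen mice, which report the transcription factor T-bet by a fluorescent protein. All 4 groups carried this reporter. SPF mice were kept free of specified pathogens and have a gut flora, GF mice were germ-free, and each kind received either aCD3, an antibody that binds the CD3 chains of the T cell receptor, or a control antibody of matched isotype. SPF isotype and SPF aCD3 held 6 libraries each, 3 of either sex. GF isotype held 10, with 5 of either sex, and GF aCD3 held 6, of which 1 was female. Libraries are named by sex letter and number. Age, dose and time of sampling were not used here. The labels do not say that each library came from a separate animal, so p-values measure the spread between these libraries.

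ATP released by stressed or activated cells opens the P2X channels, of which P2X7, encoded by P2rx7, needs high ATP and can lead to shedding of surface proteins and to T cell death. In mouse T cells the enzyme encoded by Art2b transfers ADP-ribose from extracellular NAD onto P2X7 and thereby gates it without ATP. CD39, encoded by Entpd1, degrades ATP and ADP to AMP, and CD73, encoded by Nt5e, converts AMP to adenosine, which dampens T cells through the receptor encoded by Adora2a. Adenosine deaminase, encoded by Ada, converts adenosine to inosine. In the gut, ATP also comes from the flora, and P2rx7 is known there for limiting the number of T cells.

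Reads assigned to genes ran from 6765528 to 17860666 per library. The unit is TPM, a gene's reads per length as a share of the library, and shares move when a few genes take more of the total. The 84 histone genes took between 4.31% and 7.30% of summed TPM in SPF isotype and between 24.1% and 27.1% in SPF aCD3, against 4.05% to 9.54% in GF isotype and 5.66% to 26.3% in GF aCD3. The median tested gene lay 0.35 lower on the log2 scale in SPF aCD3 than in SPF isotype, a difference that was -0.14 without Rn45s and the histone genes. Differences of the tested members are therefore given also after scaling by median of ratios, which sets that median near 0. Lag3, a receptor induced by T cell activation, was between 505 and 825 TPM in SPF aCD3 and between 9.50 and 18.5 TPM in SPF isotype. In 3 of the 6 GF aCD3 libraries, F1, M3 and M4, Lag3 was 9.59, 17.0 and 12.3 TPM, within the GF isotype range of 5.41 to 18.5, while M1, M2 and M5 had 498, 452 and 527 TPM. All 10 genes of a CD4 T cell list reached a mean of 1 TPM in each group, and their summed level was between 1868 and 2504 TPM. Of 10 B and plasma cell genes, 4 reached 1 TPM in SPF isotype and 2 in SPF aCD3. Their sum ran from 112 to 280 TPM against 17.5 to 25.97, of which Jchain, a part of secreted antibodies, gave means of 169 and 0.792 TPM. Of 15 myeloid genes, 3 and 2 reached 1 TPM; the sum was between 12.004 and 22.6 TPM in SPF isotype and between 61.9 and 110 TPM in SPF aCD3, where Cd68 alone had a mean of 76.5 TPM, while Csf1r was 0.0965 TPM and C1qa and C1qb were at 0 there. All 6 genes of a regulatory T cell list reached 1 TPM, with sums of 474 to 770 TPM in SPF isotype and 1226 to 1500 TPM in SPF aCD3. Most of these sums came from Ctla4, with means of 518 and 1088 TPM. Foxp3 had means of 23.8 and 35.2 TPM. The means of Il2ra, Tnfrsf18 and Capg were also higher in SPF aCD3, and that of Ikzf2 was slightly lower. The sum therefore does not measure the share of regulatory T cells. CD39 and CD73 are known on regulatory T cells. The part of these shifts in the results below was not tested, and in bulk samples fewer cells of a type and less RNA per cell cannot be told apart.

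Per base of the whole gene span with introns, Art2b and P2rx7 were the most abundant members in every group. In SPF isotype the mean level was 135 ± 11.7 TPM (SD, n = 6) for Art2b and 89.2 ± 9.59 for P2rx7, followed by Nt5e at 39.6 ± 5.31 and Adora2a at 31.7 ± 3.29. P2rx4 at 5.98 ± 2.48 and Entpd1 at 5.71 ± 2.06 did not differ beyond their spread. Ada followed at 1.72 ± 0.275 TPM and Adora2b at 0.279 ± 0.229. GF isotype kept the first and last places, and there Adora2a at 44.5 ± 9.22 and Nt5e at 41.0 ± 7.10 TPM (SD, n = 10) did not differ beyond their spread. Divided by exonic length instead, P2rx7 stood first with 87.6 RPKM (reads per kb of exon, scaled to the library total) in SPF isotype and Art2b next to it with 39.0, and P2rx4 with 2.72 came after Ada with 3.00. On that length Art2b (35.4) came after Nt5e (37.8) in SPF aCD3. Entpd1, whose row is 6.13% exonic, had 13.5 in SPF isotype, well above P2rx4. In SPF aCD3 Entpd1 with 24.3 came before Adora2a with 21.0. Adora2b, the low-affinity adenosine receptor, reached 1 TPM in 0 of 28 libraries and had between 0 and 28 reads a library, so it was not tested. Its highest value was 0.657 TPM. Ada reached 1 TPM in 27 of 28 libraries on 32 to 154 reads, and P2rx4 had 82 to 368 reads, so both are less precise than P2rx7 with 2719 to 10168.

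**Figure D1:**
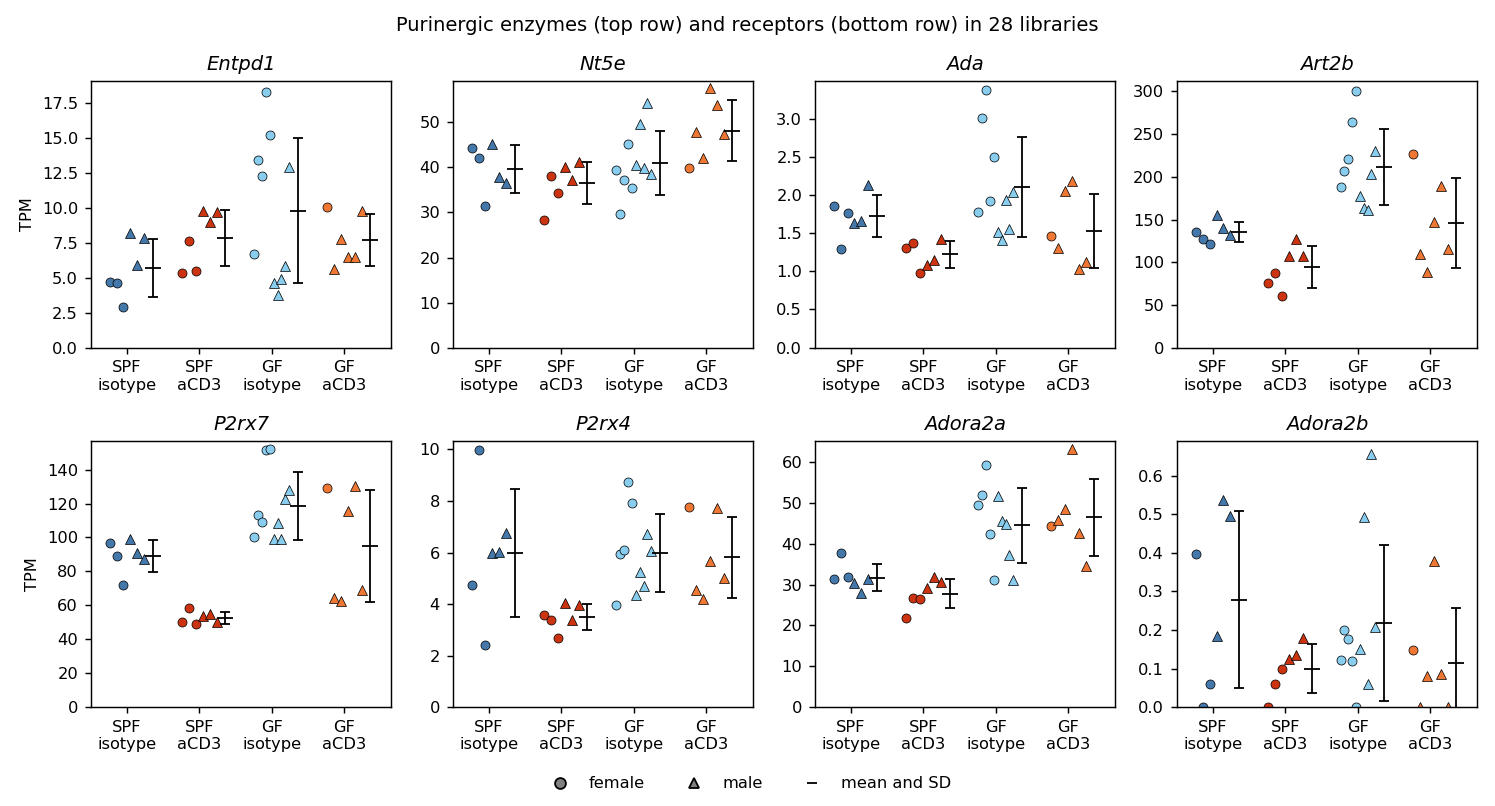
TPM of the 8 genes (y axes, linear, starting at 0) in the 4 groups, with a point per library, circles for female and triangles for male, and a bar for the mean and SD; the lower end of the GF aCD3 bar of Adora2b is cut at 0. P2rx7 in SPF aCD3 lies between 48.8 and 58.3 TPM, below all 6 SPF isotype libraries, and in GF aCD3 it splits into 3 libraries between 62.6 and 69.2 and 3 between 115 and 130.

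Windows at the RefSeq starts of P2rx7 and Art2b are shown because both genes were the highest and had the most similar profiles among the members. P2rx7 lies on the forward strand of chromosome 5, and its row spans chr5:122650383-122684289 in mm10, which is 33906 bases with 14.9% exonic sequence. This row begins 6472 bases inside the gene as GENCODE M21 draws it, at the later of 2 starts for which RefSeq gives a promoter, so transcripts from the earlier start share most of the counted span and starts cannot be told apart. P2rx4 begins 23255 bases downstream on the same strand, and the microRNA gene Mir8115 lies within the P2rx7 row. Art2b lies on the reverse strand at chr7:101575729-101581161, with its close relative Art2a 19927 bases away at chr7:101552776-101555802. The Art2b row begins 4439 bases inside the gene as GENCODE M21 draws it, so the window printed for it lies within that gene; where transcription starts was not measured. The windows run from 250 bases before to 50 bases after the RefSeq start (GRCm38.p6, the build also called mm10), and capitals mark TGANTCA, the core that AP-1 binds, TGACG, the core of cAMP response elements, and TGTGGT, the RUNX core, on either strand.
P2rx7, earlier start, chr5:122643677-122643976, forward strand: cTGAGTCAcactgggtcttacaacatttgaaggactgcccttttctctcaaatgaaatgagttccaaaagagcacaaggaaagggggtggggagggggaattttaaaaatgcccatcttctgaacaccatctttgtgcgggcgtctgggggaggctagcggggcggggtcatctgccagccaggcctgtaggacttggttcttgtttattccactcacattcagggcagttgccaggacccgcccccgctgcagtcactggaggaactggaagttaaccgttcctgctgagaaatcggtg
P2rx7, later start, chr5:122650133-122650432, forward strand: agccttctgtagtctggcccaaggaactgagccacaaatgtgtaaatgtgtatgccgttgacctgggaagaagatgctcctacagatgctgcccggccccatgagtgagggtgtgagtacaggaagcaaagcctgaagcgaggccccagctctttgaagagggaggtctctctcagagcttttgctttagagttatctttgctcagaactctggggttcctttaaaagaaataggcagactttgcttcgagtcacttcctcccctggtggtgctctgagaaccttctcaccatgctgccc
Art2b, chr7:101581112-101581411, reverse strand: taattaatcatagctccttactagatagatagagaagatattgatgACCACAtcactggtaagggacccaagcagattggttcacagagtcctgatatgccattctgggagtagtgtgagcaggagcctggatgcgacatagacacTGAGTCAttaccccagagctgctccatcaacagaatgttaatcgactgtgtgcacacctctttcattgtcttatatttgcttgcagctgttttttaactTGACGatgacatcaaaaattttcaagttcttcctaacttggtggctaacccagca
TGAGTCA stood at position -249 of the earlier P2rx7 window and at position -104 of Art2b, counted from the start as 1 with no 0. TGANTCA was present in 7.81% of 32851 RefSeq promoter windows of this length. Art2b also held TGACG at position -5, a string found in 20.8% of windows and contained in the longer TGACGTCA, and ACCACA, the reverse complement of TGTGGT, at position -204 (16.8% of windows). None of these 3 strings was present in the later P2rx7 window. GGAAA, the NFAT core, occurred at position -173 of the earlier P2rx7 window and in 61.3% of all windows. These are matches of letters, and binding was not measured.

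In SPF mice, P2rx7 fell after aCD3, and the ATP channel P2rx4 and the transferase Art2b fell with it on the TPM scale. None of the 7 tested members rose past the threshold on that scale. After scaling by median of ratios P2rx7 was still lower, while the enzymes Entpd1 and Nt5e were higher, a call for Nt5e that other rescalings did not all give. With limma on TPM, 3 of 7 members passed an adjusted p of 0.05, all lower, where 50.7% of the 12182 tested genes were lower and 14.2% higher, so the members' count is near the background. After scaling, 2 members were higher and 1 lower, against 30.2% and 29.8% of all genes. The median difference of the 7 members was -0.29 on the log2(TPM + 1) scale, against -0.35 for all genes.

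P2rx7 was 71.8 TPM in the lowest, 90.0 in the median and 99.1 in the highest SPF isotype library. In SPF aCD3 the corresponding values were 48.8, 51.96 and 58.3 TPM. Every SPF aCD3 library lay below every SPF isotype library, as 33.4% of tested genes did. The group means were 89.2 ± 9.59 and 52.7 ± 3.604 TPM (SD, n = 6 each), a log2 difference of -0.74 (SE 0.16, limma adjusted p = 0.00032). On the scaled values the groups ran from 81.2 to 94.1 and from 64.5 to 77.0 and again did not overlap, as for 19.4% of genes, with a difference of -0.33 (SE 0.11, adjusted p = 0.0115). The call held in all 28 fits that left out a single library, between -0.82 and -0.70. Those that left out a GF library could change its adjusted p but not the difference itself.

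P2rx4, a channel with higher ATP affinity, was 2.39, 5.999 and 9.96 TPM in the lowest, median and highest SPF isotype library and 2.67, 3.47 and 4.04 in SPF aCD3. The groups overlapped because SPF isotype F3 had the lowest value of both. The difference was -0.56 (SE 0.21, limma adjusted p = 0.0201) and -0.22 after scaling (adjusted p = 0.277). It missed the threshold without SPF isotype F2 (-0.41, adjusted p = 0.0734) or SPF aCD3 F3 (-0.49, adjusted p = 0.0507). Art2b was 121, 134 and 155 TPM in SPF isotype and 59.9, 97.1 and 127 TPM in SPF aCD3. Here 5 of 6 aCD3 libraries lay below all isotype libraries, and the 3 female ones were lowest, at 59.9 to 86.8 TPM. The difference was -0.55 (SE 0.20, limma adjusted p = 0.0163), but -0.14 after scaling (adjusted p = 0.484) and -0.42 without SPF aCD3 F3 (adjusted p = 0.0606). Reads of Art2b and Art2a may be split between these relatives in a way not given in the sources used here. Art2a was 69.1 ± 13.8 in SPF isotype and 46.3 ± 6.79 TPM in SPF aCD3 (SD, n = 6 each), and Art2b over Art2a was 2.01 ± 0.388 and 2.02 ± 0.338 in SPF isotype and SPF aCD3.

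The enzymes that turn ATP into adenosine did not follow P2rx7. Entpd1 was 2.89, 5.33 and 8.23 TPM in the lowest, median and highest SPF isotype library and 5.37, 8.32 and 9.76 in SPF aCD3. The difference of 0.42 (SE 0.30) did not pass (limma adjusted p = 0.226), and after scaling it was 0.80 (SE 0.29, adjusted p = 0.0223). Nt5e was 31.3, 40.02 and 45.2 TPM in SPF isotype and 28.3, 37.6 and 41.2 in SPF aCD3, with broad overlap. Its difference of -0.11 (SE 0.11, adjusted p = 0.381) turned into 0.29 (SE 0.10, adjusted p = 0.0176) after scaling. It was 0.13 with quantile normalization (adjusted p = 0.305) and 0.16 without Rn45s and the histone genes (adjusted p = 0.221). Entpd1 passed with quantile normalization (0.77, adjusted p = 0.0263) and missed the threshold without those genes (0.71, adjusted p = 0.0591). Adora2a, at 27.8, 31.3 and 37.8 against 21.8, 27.9 and 31.8 TPM, likewise differed by -0.19 (adjusted p = 0.254) and by 0.21 after scaling (adjusted p = 0.215). Ada was 1.30, 1.71 and 2.13 TPM in SPF isotype and 0.974, 1.23 and 1.43 TPM in SPF aCD3. Its difference of -0.29 missed the threshold (adjusted p = 0.0627) and was -0.05 after scaling. Ada passed without SPF isotype F2 (-0.35, adjusted p = 0.0298), SPF aCD3 M3 (-0.33, adjusted p = 0.0478) or GF isotype F3 (-0.29, adjusted p = 0.0469). It also passed with a pseudocount of 0.1 (-0.46, adjusted p = 0.0481) and with array weights (-0.34, adjusted p = 0.0118).

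**Figure D2:**
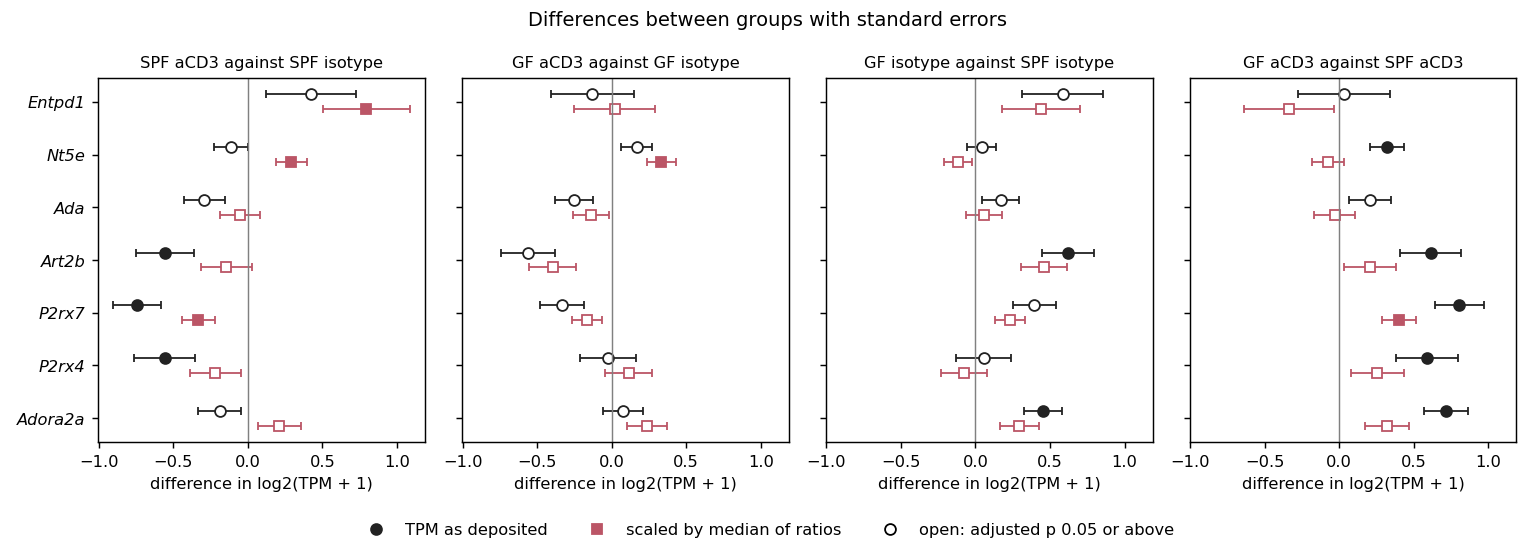
Difference in log2(TPM + 1) with its standard error (x axis) for the 7 tested members in 4 comparisons, on TPM as deposited (circles) and after scaling by median of ratios (squares); filled symbols have an adjusted p below 0.05. In SPF mice P2rx7 is filled and below 0 on both scales, at -0.74 and -0.33, while Nt5e moves from -0.11 to 0.29.

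A ratio of genes within a library does not depend on how libraries are scaled. These ratios were chosen after the values were seen and are a description. Nt5e over P2rx7 was between 0.417 and 0.472 in SPF isotype and between 0.562 and 0.821 in SPF aCD3, which do not overlap. The ratio to P2rx7 separated SPF aCD3 above SPF isotype in this way for 31% of the other 12181 tested genes. Entpd1 over P2rx7 was 0.0632 ± 0.0199 in SPF isotype and 0.148 ± 0.0367 in SPF aCD3 (SD, n = 6 each), again without overlap (0.0402 to 0.0901 against 0.107 to 0.194). Adora2a over P2rx7 went from 0.360 ± 0.0600 to 0.528 ± 0.0689, where the ranges met (highest isotype value 0.443, lowest aCD3 value 0.433). Art2b over P2rx7 was 1.52 ± 0.102 in SPF isotype and 1.78 ± 0.430 in SPF aCD3 and overlapped. In the GF groups Nt5e over P2rx7 overlapped, with 0.233 to 0.459 in isotype and 0.309 to 0.746 in aCD3. The 3 GF aCD3 libraries with high Lag3 had 0.746, 0.673 and 0.686, and the others had 0.309, 0.500 and 0.414.

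**Figure D3:**
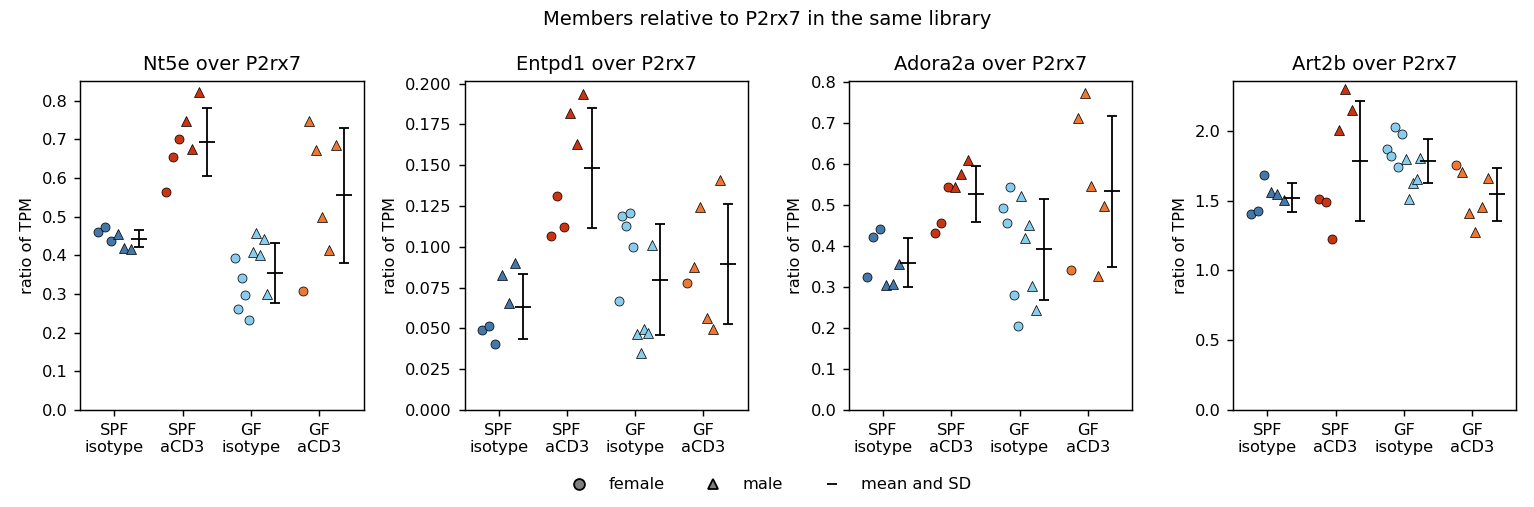
Ratio of the TPM of Nt5e, Entpd1, Adora2a and Art2b to that of P2rx7 in the same library (y axes, from 0), by group, with a point per library, circles for female and triangles for male, and a bar for mean and SD. Nt5e over P2rx7 separates SPF aCD3, at 0.562 or more, from SPF isotype, at 0.472 or less.

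In GF mice no member passed the test after aCD3. P2rx7 lay below the isotype range in 3 of 6 aCD3 libraries and inside it in the others, and Art2b lay below it in 4 of 6. With limma on TPM, 0 of 7 members had an adjusted p under 0.05, 2 had an unadjusted p under it, and voom on reads recovered from TPM called 1. Among all genes 7.08% passed, 2.46% higher and 4.61% lower, but in 25 of the 28 fits that left out a single library 0 genes passed, as with a pseudocount of 0.1, no filter on low values or the replicate name as a block. The median gene lay 0.15 lower in GF aCD3 and the median member 0.13 lower. In GF aCD3 the sums were 23.2 to 113 TPM for the B and plasma cell list, 34.7 to 71.7 for the myeloid list and 632 to 1309 for the regulatory T cell list, and their part was not tested. P2rx7 was 98.9, 111 and 152 TPM in the lowest, median and highest GF isotype library and 62.6, 92.3 and 130 TPM in GF aCD3. GF aCD3 F1, M3 and M4, those with Lag3 at the isotype level, had 129, 115 and 130 TPM, inside the isotype range. GF aCD3 M1, M2 and M5 had 64.2, 62.6 and 69.2 TPM, below all 10 isotype libraries and above all 6 SPF aCD3 libraries. Scaled, these 3 had 72.3, 70.4 and 83.6, still below GF isotype at 87.99 to 131, but M1 and M2 lay within the SPF aCD3 range of 64.5 to 77.0. Over all 6 libraries the difference was -0.33 (SE 0.15, limma adjusted p = 0.112), and -0.17 after scaling (adjusted p = 0.260).

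Art2b was 161, 205 and 300 TPM in the lowest, median and highest GF isotype library, and F1, M3 and M4 of GF aCD3 had 227, 147 and 189 TPM, against 110, 88.2 and 115 TPM in M1, M2 and M5. F1 and M4 lay inside the isotype range and the other 4 below it; on the scaled values M3, at 119, was below M1 at 123 and M5 at 139. The difference was -0.56 (SE 0.18, limma adjusted p = 0.0537), and -0.39 after scaling (adjusted p = 0.0881). Leaving out 1 library brought both genes past the threshold: without F1, M3 or M4 of GF aCD3, P2rx7 was -0.46, -0.40 and -0.44 (adjusted p = 0.0330, 0.0430 and 0.0278) and Art2b was -0.76, -0.58 and -0.65 (adjusted p = 0.00757, 0.0256 and 0.0162). In the same 3 fits 21.6%, 28% and 24.1% of all genes were lower. Without all 3 the differences were -0.81 for P2rx7 and -1.03 for Art2b, and -0.34 for the median gene. These 3 were set aside for their measured level of Lag3, itself a response to aCD3, so no test is drawn from those values. What sets the 3 libraries apart was not tested.

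The GF column names carry sample numbers in 2 ranges, 25 to 33 and 48 to 54. In GF isotype P2rx7 ran from 98.9 to 113 TPM in the first range (n = 6) and from 123 to 152 in the second (n = 4), and 5.51% of all genes were likewise higher in every library of the second range. Within the first range GF aCD3 was 62.6, 64.2 and 115 TPM and the difference -0.39, and within the second 69.2, 129 and 130 TPM and -0.33, neither past the threshold (adjusted p = 0.402 and 0.734). Adora2a went the other way, from 44.8 to 59.4 TPM in the first range and from 31.1 to 42.5 in the second, as did 4.53% of genes. With the range as a covariate P2rx7 was -0.38 (adjusted p = 0.0413) and Art2b -0.62 (adjusted p = 0.0190), in a fit with 12.2% of genes lower. After scaling, Nt5e was 0.33 higher in GF aCD3 (SE 0.10, adjusted p = 0.0411), where 5.62% of genes were higher. On TPM Nt5e was 29.7, 39.7 and 54.3 in GF isotype and 39.9, 47.7 and 57.7 in GF aCD3, a difference of 0.17 (adjusted p = 0.232). Differences of Entpd1 (-0.13, adjusted p = 0.754), P2rx4 (-0.02, adjusted p = 0.936), Adora2a (0.07, adjusted p = 0.704) and Ada (-0.25, adjusted p = 0.150) did not pass. After scaling they were 0.02, 0.11, 0.24 and -0.14, and did not pass either. On TPM, Ada passed without GF aCD3 M3 (-0.32, adjusted p = 0.0495), in a fit with 28% of genes lower.

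**Figure D4:**
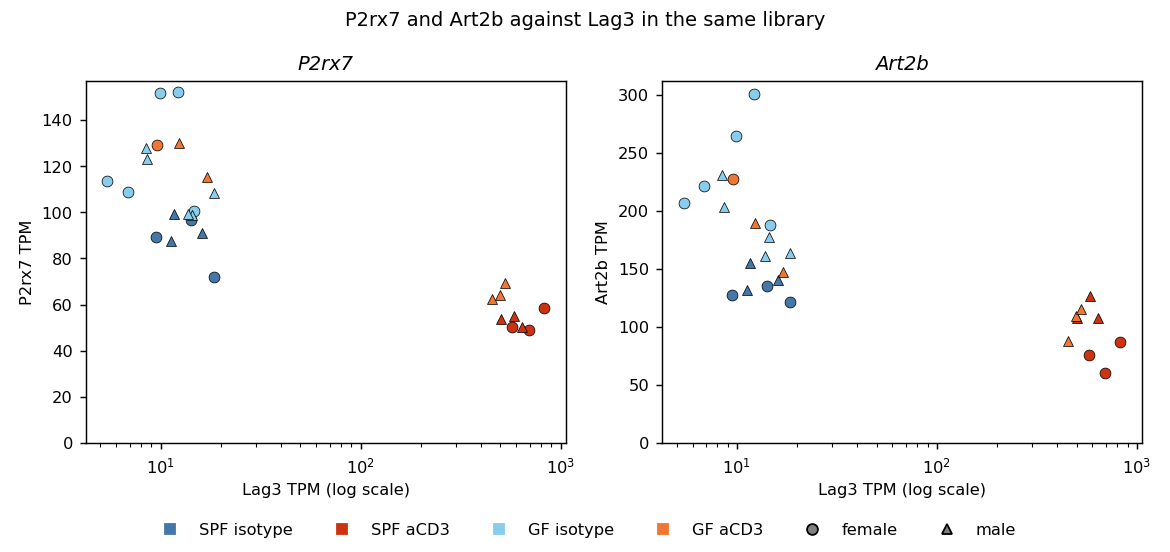
TPM of P2rx7 (left) and Art2b (right) on linear y axes from 0 against TPM of Lag3 in the same library on a log x axis, for 28 libraries coloured by group, with circles for female and triangles for male. The libraries with Lag3 of at least 452 TPM, 6 of SPF aCD3 and 3 of GF aCD3, have P2rx7 between 48.8 and 69.2 TPM, and the other 19 between 71.8 and 152. On the scaled values, not plotted, the 9 run from 64.5 to 83.6 and the other 19 from 81.2 to 131, so they overlap.

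Between control mice, Art2b and Adora2a were higher in GF than in SPF on the TPM scale. With limma 2 of 7 members passed, both higher, against 6.42% of genes higher and 0.755% lower; the median gene lay 0.15 higher in GF. After scaling 0 of 7 did (3 had an unadjusted p under 0.05, and voom called 0), against 1.67% of genes. Art2b ran from 121 to 155 TPM in SPF isotype and from 161 to 300 TPM in GF isotype, so the groups did not overlap, as for 2.39% of genes. The means were 135 ± 11.7 (SD, n = 6) and 212 ± 44.3 TPM (SD, n = 10), a difference of 0.62 (SE 0.18, adjusted p = 0.0318) and 0.46 after scaling (adjusted p = 0.143). Adora2a was 27.8, 31.3 and 37.8 TPM in the lowest, median and highest SPF isotype library and 31.1, 45.2 and 59.4 TPM in GF isotype. There, 7 of 10 GF libraries lay above all SPF libraries, and the difference was 0.45 (SE 0.13, adjusted p = 0.0328) and 0.29 after scaling (adjusted p = 0.323). P2rx7 was 0.40 higher in GF (SE 0.14, adjusted p = 0.0905), above all SPF isotype libraries in 9 of 10, and 0.23 after scaling. It passed without Rn45s and the histone genes (0.44, adjusted p = 0.0132) and with array weights (0.31, adjusted p = 0.0378). Entpd1 differed by 0.58 (adjusted p = 0.177), Ada by 0.17 (adjusted p = 0.393), P2rx4 by 0.05 (adjusted p = 0.870) and Nt5e by 0.04 (adjusted p = 0.815). After scaling these were 0.44, 0.06, -0.08 and -0.12. Sums over marker lists of other cells also had different ranges in these groups. The B and plasma cell sum was 112 to 280 TPM in SPF isotype and 33.5 to 127 in GF isotype (4 and 3 of 10 genes at 1 TPM). The myeloid sum was 12.004 to 22.6 and 19.5 to 58.5 TPM (3 and 5 of 15 genes, with Cd14 at 0 in SPF isotype), and the regulatory T cell sum overlapped, at 474 to 770 and 437 to 902 TPM. Their part in the differences of the members was not tested.

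Both calls lay close to the threshold and were lost in some fits without 1 library, with differences that stayed positive. Art2b lay between 0.56 and 0.67 in the fits without 1 library and missed the threshold in 7 of 28: without SPF isotype F1, F2, F3 or M3 (0.62, 0.60, 0.58 and 0.62; adjusted p = 0.0600, 0.0590, 0.0949 and 0.0548) or GF isotype F3, F4 or F5 (0.61, 0.58 and 0.56; adjusted p = 0.0518, 0.0535 and 0.0529). Adora2a lay between 0.40 and 0.51 and missed it in 9, with adjusted p up to 0.0802. These were the fits without SPF isotype F1, F3, M1, M2 or M3 (0.45, 0.45, 0.44, 0.42 and 0.45) and without GF isotype F1, F2, F3 or M1 (0.43, 0.43, 0.40 and 0.42). A fit with the number range as a covariate counted SPF libraries with the first GF range. Its values therefore stand for first-range GF libraries against SPF and adjust nothing between GF and SPF. In that fit Art2b was 0.43 and did not pass (adjusted p = 0.0880), while Adora2a was 0.63 and did (adjusted p = 0.00035). There P2rx7 was 0.23 (adjusted p = 0.258) and Entpd1 0.35 (adjusted p = 0.431). The mean of Adora2a in GF isotype was 50.5 TPM in the first range and 35.5 in the second. SPF columns carry sample numbers 1 to 12 and GF columns 25 to 54, so flora and the order of numbering cannot be told apart.

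After aCD3, P2rx7, Adora2a, Art2b, P2rx4 and Nt5e were higher in GF than in SPF on the TPM scale. With limma these 5 of 7 members passed, all higher, where 48.9% of genes were higher and 4.46% lower, and the median gene lay 0.34 higher and the median member 0.59 higher. After scaling P2rx7 alone passed, where 16.1% of genes were higher and 16.7% lower. For P2rx7 all 6 GF aCD3 libraries, at 62.6 to 130 TPM, lay above all 6 SPF aCD3 libraries, at 48.8 to 58.3, as did 12.2% of genes. Its difference was 0.80 (SE 0.17, adjusted p = 0.00078) and 0.40 after scaling (SE 0.11, adjusted p = 0.0110). On the scaled values 4 of the 6 lay above all SPF aCD3 libraries. Adora2a also did not overlap, at 34.5 to 63.2 against 21.8 to 31.8 TPM, with 0.72 (SE 0.15, adjusted p = 0.00080) and 0.32 after scaling (adjusted p = 0.10002). P2rx4 did not overlap either, at 4.202 to 7.77 against 2.67 to 4.04 TPM, with 0.59 (adjusted p = 0.0220) and 0.26 after scaling (adjusted p = 0.265). On the scaled values 3 of 6 GF aCD3 libraries lay above all SPF aCD3 libraries for Adora2a, and 3 of 6 for P2rx4. Art2b, at 88.2 to 227 against 59.9 to 127 TPM, differed by 0.61 (adjusted p = 0.0140) and by 0.21 after scaling (adjusted p = 0.373). Nt5e, at 39.9 to 57.7 against 28.3 to 41.2 TPM, differed by 0.32 (adjusted p = 0.0205) and by -0.08 after scaling (adjusted p = 0.601). Entpd1 (0.03, adjusted p = 0.937) and Ada (0.21, adjusted p = 0.208) did not pass, nor did they after scaling (-0.33, adjusted p = 0.405, and -0.03, adjusted p = 0.887).

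Without GF aCD3 F1, M3 and M4, set aside for their Lag3 level, P2rx7 was 0.32, Adora2a 0.62, Art2b 0.15, P2rx4 0.30 and Nt5e 0.24, and the median gene 0.16, from which no test is drawn. Leaving out single libraries ended the call of Nt5e without GF aCD3 M3 (0.28, adjusted p = 0.0549), of P2rx4 without GF aCD3 F1 (0.48, adjusted p = 0.0881) or M4 (0.51, adjusted p = 0.0569) and of Art2b without GF aCD3 F1 (0.42, adjusted p = 0.0916). P2rx7 and Adora2a passed in all 28 such fits. With the number range as a covariate Nt5e (0.28, adjusted p = 0.0712), P2rx4 (0.35, adjusted p = 0.162) and Art2b (0.36, adjusted p = 0.121) missed the threshold, and P2rx7 (0.59, adjusted p = 0.00554) and Adora2a (0.96, adjusted p = 1.42e-05) passed. Here too SPF was counted with the first GF range, so these values stand for first-range GF libraries and are no adjustment between GF and SPF. Adora2a in GF aCD3 had a mean of 52.5 TPM in the first range and 40.5 in the second.

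Whether the response to aCD3 differed between GF and SPF mice was tested as an interaction. With limma 0 of 7 members passed, 0 had an unadjusted p under 0.05 and voom called 0, while 3.48% of genes passed. That share rests on single libraries: 424 of the 12182 genes passed, against 32 without GF aCD3 F1 and 3187 without GF aCD3 M5, and 1381 after scaling. The aCD3 difference of P2rx7 was -0.74 in SPF and -0.33 in GF, and the difference of the differences was 0.41 (SE 0.22, adjusted p = 0.192), or 0.17 after scaling. For P2rx4 it was 0.53 (SE 0.28, adjusted p = 0.183), or 0.33 after scaling. It passed without SPF isotype F3, the library with its lowest value (0.77, adjusted p = 0.0342), where 14.7% of all genes were higher. In that library the ribosomal RNA gene Rn45s took 22.9% of summed TPM, the highest share of the 28. Entpd1 had -0.55 (SE 0.41, adjusted p = 0.351), Nt5e 0.28 (adjusted p = 0.193), Adora2a 0.26 (adjusted p = 0.349), Ada 0.04 (adjusted p = 0.899) and Art2b -0.01 (adjusted p = 0.986). After scaling these were -0.78, 0.04, 0.03, -0.09 and -0.25, none past the threshold. The 4 comparisons and the interaction share their groups, so their values are not independent of each other.

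Entpd1 separated the SPF libraries by sex, a comparison made after the values were seen. In SPF isotype the 3 female libraries had 2.89, 4.61 and 4.72 TPM and the 3 male ones 5.94, 7.89 and 8.23. After aCD3 the SPF females had 5.37, 5.48 and 7.66 and the SPF males 8.98, 9.72 and 9.76 TPM, so within each treatment every male was above every female, as for 1.13% of tested genes. In GF isotype the order was turned, with 6.69, 12.3, 13.5, 15.2 and 18.3 TPM in females and 3.79, 4.62, 4.91, 5.83 and 12.9 TPM in males. Male minus female was 0.65 in SPF (SE 0.22, limma adjusted p = 0.543) and -0.99 in GF isotype (SE 0.24, adjusted p = 0.183), where 0.0739% and 0.123% of genes passed. The difference of both was -1.63 (SE 0.33, unadjusted p = 4.92e-05) and did not pass over all genes (adjusted p = 0.137). It was -1.54 after scaling (adjusted p = 0.101). In this test 0% of the 12182 genes passed, while 867 had an unadjusted p under 0.05. Art2b had the next difference of this kind in size, -0.71 (adjusted p = 0.460), with SPF males 0.39 higher and GF isotype males 0.32 lower (-0.32). The comparisons of groups held 1 sex term for all groups, while GF aCD3 held 1 female of 6 libraries and GF isotype 5 of 10. The Entpd1 differences that involve GF aCD3 therefore also carry this sex mix. In males alone Entpd1 was 6.42 ± 3.71 TPM in GF isotype and 7.22 ± 1.62 in GF aCD3 (SD, n = 5 each).

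**Figure D5:**
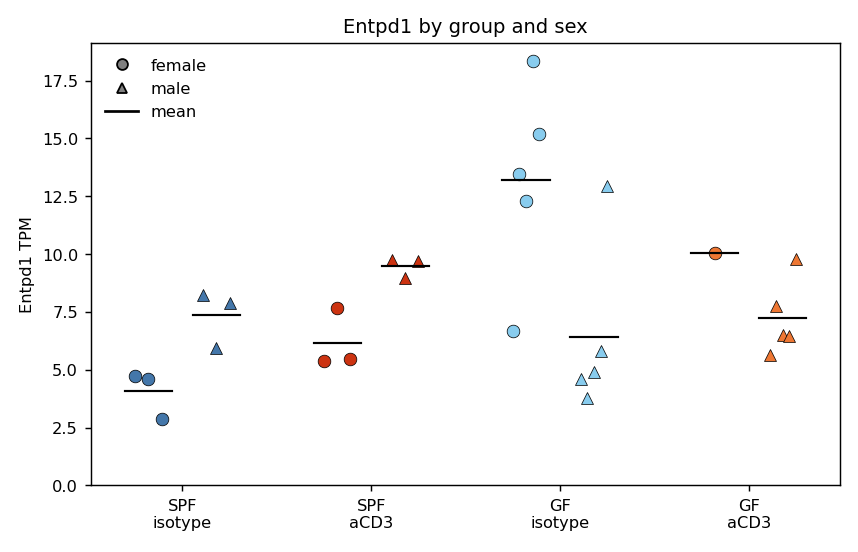
TPM of Entpd1 (y axis, from 0) by group and sex, with a point per library and a line for the mean of each sex. SPF males lie above SPF females in both treatments, while 4 of 5 GF isotype females lie above 12 TPM and 4 of 5 males below 6 TPM.

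Genes with the profile most like each member were sought over the 28 libraries, by the root mean square difference of standardised log2(TPM + 1) among 10682 genes. Closest to P2rx7 were the autophagy kinase gene Ulk2 (0.229), the adaptor gene Nedd9 (0.230) and the ubiquitin ligase gene Cbl (0.232). Nedd9 had means of 97.8 and 53.2 TPM in the SPF isotype and aCD3 groups and 127 and 97.8 TPM in the GF ones, beside 89.2, 52.7, 118 and 95.1 TPM for P2rx7. Art2b was nearest to the helicase gene Ddx50 (0.374), Tmem127 (0.377) and Zbtb38 (0.381). Between members the smallest distance was that of P2rx7 and Art2b (0.402), followed by P2rx7 and P2rx4 (0.685), and the largest was that of Nt5e and Ada (1.56). The remaining members had no gene as near: P2rx4 was closest to Ppp4r1l-ps (0.483), Ppp1ccb and Ap3b1, Entpd1 to Pik3ap1 (0.531), Snf8 and Pik3cg, Adora2a to Tyw5 (0.552), Cers5 and Med14, Ada to Spry2 (0.552), Sema4a and Zbtb16, and Nt5e to Tacc2 (0.666), Plod2 and Dpysl2. The libraries differ in depth and in histone share, which every profile carries.

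Of 80 other genes listed around nucleotide and NAD handling, 77 were in the table and 39 were tested. In SPF mice 18 of the 39 fell and 8 rose after aCD3, beside 50.7% and 14.2% of all genes, and 13 did not pass. After scaling 13 fell and 14 rose, beside 29.8% and 30.2% of all genes. The median of the list was -0.30, against -0.35 for all genes. The lysophosphatidylserine receptor gene Gpr34, of the P2Y-like receptor branch, fell from a mean of 67.5 to 12.1 TPM (-2.40, SE 0.32, limma adjusted p = 3.53e-06; -2.02 after scaling). The nucleotidase gene Entpd6 fell from 13.6 to 2.97 TPM (-1.88, adjusted p = 2.88e-05) and Enpp5, of the pyrophosphatase-phosphodiesterase family, from 12.6 to 2.82 TPM (-1.78, adjusted p = 4.84e-06). Both held after scaling, at -1.55 and -1.46. Among those that rose, Ahcy, which releases adenosine from S-adenosylhomocysteine, went from 4.78 to 9.95 TPM (0.92, adjusted p = 1.32e-05; 1.29 after scaling). The nucleoside transporter gene Slc29a1, which carries adenosine across the membrane, went from 19.8 to 34.2 TPM (0.73, adjusted p = 0.00035; 1.13 after scaling), and Siva1 from 11.97 to 20.7 TPM (0.72, adjusted p = 0.00089). Siva1 encodes an apoptosis-inducing adaptor that binds CD27 and is not known as a nucleotide or NAD enzyme, although the list holds it.

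In GF mice 1 of the 39 passed higher after aCD3 and 2 lower, beside 2.46% and 4.61% of all genes; after scaling 4 were higher and 2 lower, beside 5.62% and 4.02%. All 3 TPM calls were lost in each of the 25 fits above in which 0 genes passed. With limma, Slc29a1 was higher, at 21.9 TPM in isotype and 32.3 in aCD3 (0.54, SE 0.15, adjusted p = 0.0482), Gpr34 was lower, at 64.1 and 39.1 TPM (-1.05, adjusted p = 0.0482) and P2ry10, another lysophosphatidylserine receptor gene, was lower, at 296 and 207 TPM (-0.65, adjusted p = 0.0499). These aCD3 means join the libraries with high Lag3 and those at its isotype level. Between isotype groups 3 were higher in GF and 1 lower, beside 6.42% and 0.755% of all genes, and 0 and 1 after scaling, where 1.67% of genes passed in either direction. Cd38, an NAD-consuming ectoenzyme, was 20.0 TPM in SPF and 27.6 in GF (0.45, adjusted p = 0.0118; 0.29 and adjusted p = 0.126 after scaling), and Panx1, whose channel releases ATP, was 12.97 and 15.7 TPM (0.25, adjusted p = 0.00315; 0.10 and adjusted p = 0.573 after scaling). Gja1, encoding the connexin 43 channel, was lower in GF, with 0.926 against 7.53 TPM (-2.29, adjusted p = 5.26e-05; -2.33 after scaling). Of 10 endothelial and stromal cell genes, 5 reached 1 TPM in SPF isotype and 1 in GF isotype, with sums of 14.6 to 41.3 and 7.57 to 13.9 TPM. After aCD3 the sums were 2.98 to 4.80 TPM in SPF and 3.497 to 12.04 TPM in GF, where Gja1 had means of 5.60 and 0.83 TPM. The part of these cells in the Gja1 difference was not tested. Between aCD3 groups 19 were higher in GF and 3 lower, beside 48.9% and 4.46% of all genes, and 10 and 8 after scaling, beside 16.1% and 16.7%. Entpd6 (1.46, adjusted p = 0.00131), Enpp5 (1.31, adjusted p = 0.00059) and Gpr34 (1.27, adjusted p = 0.00305) were the highest, and Gja1 (-1.96, adjusted p = 0.00030), Ahcy (-0.43, adjusted p = 0.0166) and Aprt, an adenine-salvaging enzyme (-0.31, adjusted p = 0.0302), were lower. In the interaction 0 of 39 passed on TPM. After scaling, Gpr34 (1.12, adjusted p = 0.0492), Enpp5 (0.96, adjusted p = 0.0327) and P2ry10 (0.69, adjusted p = 0.0461) passed higher and Aprt (-0.61, adjusted p = 0.0383) and Panx1 (-0.34, adjusted p = 0.0370) lower, beside 5.3% and 6.03% of all genes. Other receptors of the family were scarce: Adora1, Adora3, P2rx1, P2rx2, P2rx3, P2rx5 and P2rx6 had means below 0.5 TPM in all 4 groups, and P2ry1, an ADP receptor gene, fell from 3.34 to 0.375 TPM in SPF mice (-1.63, adjusted p = 0.00018), a gene named after its values were seen.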

How the data were processed

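RNA of sorted CD4+ T cells was measured in 28 libraries of 4 groups. The authors deposited TPM, per the file headers computed with HOMER's analyzeRepeats.pl over RefSeq genes of mm10 with the transcripts of a gene condensed. The aligner appears only through the default output name of STAR in the column names; count mode, strand and versions are not given in the sources used here. In 99.24% of rows the length is the whole gene span. Per the labels, a total RNA kit was used while the molecule is called polyA RNA. Another 26 TPM columns that match no sample here were not used.

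TPM times length was a whole multiple of 1 step per library (tolerance 0.1 reads) in 100.0% of low values, which gave whole reads, 6765528 to 17860666 per library; depths of this kind speak to counting error only.

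Genes with at least 1 TPM in at least 6 libraries were tested (12182 of 25124). Log2(TPM + 1) values were fitted with limma 3.58.1 under R 4.3.3, using group means, a sex term, empirical Bayes moderation with a trend and Benjamini-Hochberg adjustment over all tested genes, threshold 0.05. The log2 scale with this pseudocount understates changes of low genes. The fit was tested on simulated data. Summaries were made with pandas 2.3.3 and NumPy 2.4.6 under Python 3.11.15.

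All 8 members are named; of 80 other pathway genes, those past the threshold with a mean of at least 5 TPM in a compared group, at most the 3 highest and 3 lowest; and for each tested member the 3 genes most like it. Members, lists and rule were chosen with earlier results of these data known. Alternatives changed the pseudocount, filter, scaling, test, weights, covariates and libraries; the sex comparison and the ratios were added after seeing the data.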

Additional observations from a re-analysis of the deposited data

How the results depend on the processing

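Counts of members past the threshold moved as follows. In SPF aCD3 against SPF isotype 3 members became 4 with a pseudocount of 0.1 or array weights, where Ada joined. The 7898 of 12182 genes called became 7928 and 8783 in these fits. Members were 2 with quantile normalization (7099 genes called) and 1 without Rn45s and the histone genes (7351 of 12973). They were 0 when a log2 difference of at least 1 was also required (1940 genes called), and ran from 1 to 4 without single libraries. In GF aCD3 against GF isotype 0 became 1 with at least 5 TPM, with median of ratios, with voom on recovered reads and without the sex term, 2 with array weights, 2 with the number range as a covariate, and 0 to 3 without single libraries. The calls over all genes in that comparison moved too, from 862 of 12182 to 3636 with array weights, 2472 without the sex term, 2215 with the number range, 1175 with median of ratios and 942 with voom, and to 1117 of 9117 with at least 5 TPM. In GF isotype against SPF isotype 2 became 3 without Rn45s and the histone genes or with array weights, where P2rx7 joined and 874 genes called became 2362 and 1904. They became 0 with median of ratios, quantile normalization, voom or the required log2 difference of 1, where 204, 178, 225 and 49 genes were called. They were 1 with the number range (Adora2a, with 1232 genes called), and 0 to 2 without single libraries. In GF aCD3 against SPF aCD3 5 became 1 with median of ratios or voom (3988 and 4365 genes called) and 4 without Rn45s and the histone genes (5659 of 12973). They became 2 (P2rx7 and Adora2a) with quantile normalization, array weights or the number range (6496 genes called became 3348, 3680 and 5401). They were 0 with the required log2 difference of 1 (667 genes called), and 3 to 5 without single libraries. In the interaction 0 became 1 in a single fit, without SPF isotype F3, where 424 genes called became 2070. The number range counted SPF with the first GF range, so its GF against SPF counts stand for first-range GF libraries. Without the 3 GF aCD3 libraries at the isotype level of Lag3 these counts, in the same order, were 3, 2, 3, 0 and 0; that split follows a response to aCD3, so they describe the fit and are no test.

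Nt5e changed sign with scaling. In SPF aCD3 against SPF isotype it was 0.29 with median of ratios (adjusted p = 0.0176) and 0.30 with voom, but 0.13 with quantile normalization and 0.16 without Rn45s and the histone genes, which did not pass. In GF aCD3 against SPF aCD3 it was -0.077 with median of ratios and -0.078 with voom. It stayed positive there with quantile normalization (0.041) and without Rn45s and the histone genes (0.22), and none of these passed. The cause was not tested.

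Shared replicate names do not pair the libraries: over 12 pairs r ran from -0.21 to 0.20, above 0.1 in 4. With the name as a replicate block, 1 member passed in GF isotype against SPF isotype, as did 658 of 12182 genes. Adora2a was 0.64 there (limma adjusted p = 0.00182) and Art2b 0.46 (adjusted p = 0.166). In GF aCD3 against SPF aCD3 2 members passed, as did 5715 genes, and Nt5e, P2rx4 and Art2b had adjusted p = 0.0703, 0.0528 and 0.0690. P2rx7 in SPF mice kept its direction, and an adjusted p under 0.05, under all 13 alternatives that refitted the data, between -0.80 and -0.33. The filters, the sex term, the replicate block and the number range could change only its adjusted p and left the difference at -0.74. At that value P2rx7 does not reach the required log2 difference of 1. Reads limit Adora2b, at most 28 a library, and Ada. Leaving a single GF aCD3 female out removes that sex from the group.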
